A study of Mus musculus with 44 samples.

Results

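The MAPK feedback phosphatases and Sprouty proteins described here are 10 genes, chosen by symbol: the dual-specificity phosphatases Dusp1, Dusp4, Dusp5, Dusp6 and Dusp10, the Sprouty genes Spry1, Spry2 and Spry4, and the Sprouty-related genes Spred1 and Spred2. All 10 were found in both gene tables, which hold 22674 genes for the maturation window and 18274 genes for the ovulation window. RNA was sequenced from ovarian follicles of wild-type CD-1 mice, an outbred laboratory strain, and PFNA (perfluorononanoic acid, one of the persistent fluorinated surfactants) was compared with control in each window. In the maturation window, the gonadotropin-dependent phase of follicle growth, follicles received the solvent DMSO (11 control libraries) or PFNA (10 libraries). In the ovulation window all follicles received hCG (human chorionic gonadotropin, which acts on the LH receptor and triggers ovulation), 12 libraries without and 11 with PFNA. The labels give neither dose, duration and animal age nor how many follicles or mice stand behind a library, so p-values measure the spread between these libraries.

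Receptor tyrosine kinases, including the EGF receptor, signal through RAS and the kinase cascade RAF, MEK and ERK, and the transcripts of many inhibitors of that cascade are themselves raised by ERK activity, which makes them negative feedback genes. Dual-specificity phosphatases remove the activating phosphates from ERK, p38 or JNK, Sprouty proteins act between the receptor and RAF, and Spred proteins bring neurofibromin to RAS. In the preovulatory follicle LH or hCG activates ERK in granulosa cells, largely through EGF-like ligands, and that activation is needed for ovulation and luteinization.

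Values of the maturation window are TPM (transcript abundances scaled for length and to a fixed total per library), with unknown read depth. Values of the ovulation window are CPM (counts scaled to the same total) after normalization by TMM, from libraries of between 1.06e+07 and 1.951e+07 counts. Granulosa cell markers, 9 genes, took 3.60 to 5.78% of TPM in maturation controls and 1.51 to 4.37% with PFNA, where 6 of the 9 were lower (limma). Inha made up most of this share, with medians of 3.477e+04 TPM in controls and 2.144e+04 TPM with PFNA. After hCG the 9 markers took 1.27 to 1.69% of counts in controls and 1.18 to 1.63% with PFNA. There 6 were higher and 2, Inha and Inhba, lower (edgeR). These 2 genes made up most of the share, with control medians of 7022 and 6350 CPM on library totals. The summed level of 11 oocyte markers moved with the groups, and all 10 that were tested were lower with PFNA during maturation. It lay between 0.0123% and 0.0189% of TPM in maturation controls, and in the PFNA libraries it was between 2.7e-05% and 0.000766% in replicates 3 to 9 but 0.0130%, 0.0115% and 0.0328% in replicates 1, 2 and 10. Zp3, which encodes a zona pellucida protein of the oocyte, was listed at 0 in 5 of the 10 PFNA libraries. After hCG the oocyte markers took 0.00629 to 0.0285% of counts in controls and 0.000811 to 0.0492% with PFNA, lowest in PFNA replicate 5, and 5 of 10 tested were higher. Of all genes tested, 13.3% were called higher and 16.1% lower during maturation, and 38% higher and 35.2% lower after hCG. Counts of called markers, here and below, are to be read against those shares. In bulk follicles fewer cells of a type and less RNA per cell cannot be told apart.

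RefSeq promoter windows (GRCm38.p6) were at hand for 8 of the 10 members, all but Dusp4 and Spry4. The 250 bases before the transcript start were searched on both strands for binding motifs of factors downstream of cAMP or ERK. These windows are shown because their genes differ in response: Dusp1, which did not pass the test after hCG, Dusp5, which did, and Dusp6 and Spry2, which passed in opposite directions in the windows. Bases that GENCODE M21 places in an exon are left out, and capitals mark the cAMP response element, its half-site and the CArG boxes, while GC boxes are in lower case.
Dusp1, chr17:26508520-26508722, minus strand: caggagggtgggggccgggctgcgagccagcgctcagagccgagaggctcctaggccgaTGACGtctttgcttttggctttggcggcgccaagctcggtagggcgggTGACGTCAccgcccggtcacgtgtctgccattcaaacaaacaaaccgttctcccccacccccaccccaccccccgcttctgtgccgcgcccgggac
Dusp5, chr19:53528895-53529108, plus strand: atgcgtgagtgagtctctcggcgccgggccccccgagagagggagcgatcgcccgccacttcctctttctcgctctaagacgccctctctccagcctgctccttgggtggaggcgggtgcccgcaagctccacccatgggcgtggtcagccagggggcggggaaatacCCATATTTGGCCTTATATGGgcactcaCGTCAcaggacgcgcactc
Dusp6, chr10:99262981-99263230, plus strand: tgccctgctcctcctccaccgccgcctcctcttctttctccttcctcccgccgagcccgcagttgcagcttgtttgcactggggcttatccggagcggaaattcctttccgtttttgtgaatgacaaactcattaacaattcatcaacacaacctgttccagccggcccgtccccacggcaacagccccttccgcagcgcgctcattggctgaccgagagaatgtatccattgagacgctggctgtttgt
Spry2, chr14:105896820-105897069, minus strand: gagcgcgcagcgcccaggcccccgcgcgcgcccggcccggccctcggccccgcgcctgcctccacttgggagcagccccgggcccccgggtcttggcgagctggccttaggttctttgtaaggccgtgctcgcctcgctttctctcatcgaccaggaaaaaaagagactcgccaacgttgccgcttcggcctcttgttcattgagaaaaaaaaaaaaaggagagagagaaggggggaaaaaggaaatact
The Dusp1 window held the full cAMP response element TGACGTCA, found in 1.55% of all 32851 promoter windows of that length, and a further half-site TGACG upstream of it. The Dusp5 window held 2 abutting CArG boxes, the element bound by serum response factor, which occurs in 1.47% of all windows, followed by a half-site TGACG on the opposite strand. The half-site, whose matches include the 2 that overlap within the full element, was found in 3 of the 8 member windows (Dusp1, Dusp5 and Spred2) and in 17.8% of all windows. None of the 8 held the AP-1 motif TGANTCA, the EGR motif GCGNGGGCG or the ETS motif CCGGAA, which occur in 6.75%, 4.7% and 12% of all windows. The GC box GGGCGG was in 6 of the 8, the exceptions being Dusp6 and Spry2, and in 32.7% of all windows. These are matches of letters in short windows, and no binding was measured.

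The first comparison asked how PFNA changed these transcripts while follicles matured. Of the 9 members that averaged 1 TPM or more, 6 rose with PFNA and none fell (limma on log2(TPM + 1), Benjamini-Hochberg adjusted p under 0.05 over all genes). Among all 13712 genes tested, 29.4% were called, 13.3% as higher and 16.1% as lower. Higher genes made up 45.3% of all calls, or 59.2% with values rescaled without mitochondrial-like genes, where the same count of 6 members rose. The median log2 fold change was 0.67 over the 9 members and 0.023 over all genes. Both ERK-directed phosphatases with the largest rise, Dusp4 and Dusp6, more than doubled in mean TPM, and Spry1 nearly so.

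Dusp6 (chromosome 10, 99263231 to 99267489), the cytoplasmic phosphatase selective for ERK, was measured at 18.7 TPM in the lowest maturation control, 31.3 at the median and 48.8 in the highest, against 41.8, 65.7 and 117 TPM with PFNA. Of 10 PFNA libraries, 9 lay above every control, and only replicate 9 fell within the control range. The mean rose from 31.7 ± 9.99 (SD, n = 11) to 68.2 ± 20.7 TPM (SD, n = 10), or 1.09 on the log2 scale (SE 0.18, adjusted p = 0.0001 by limma). Dusp4 (chromosome 8, 34807297 to 34819894), a nuclear phosphatase of ERK and other MAP kinases, stood at 0.734, 1.55 and 3.70 TPM in the lowest, median and highest control and at 3.18, 4.86 and 11.3 TPM with PFNA. Again 9 of 10 PFNA libraries exceeded every control, the exception being replicate 2. The rise in mean was 3.34-fold in TPM, or 1.31 on the log2 scale (SE 0.20, adjusted p = 4.9e-05 by limma), at low levels where the added 1 TPM reduces the fitted change.

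Dusp1 (chromosome 17, 26505590 to 26562128), a nuclear phosphatase that acts on p38 and JNK as well as ERK and is an immediate-early gene, rose from 3.15 ± 0.848 (SD, n = 11) to 5.85 ± 2.36 TPM (SD, n = 10), or 0.67 on the log2 scale (SE 0.17, adjusted p = 0.0044 by limma). Only 4 of its 10 PFNA libraries were above every control, so the groups overlapped widely. Its gene model spans 56539 bases in the maturation table and 2882 bases in the ovulation table, and the longer model reaches into Ergic1 on the opposite strand, whose reads could not be told apart without strand. Dusp5 (chromosome 19, 53529109 to 53542431), the nuclear phosphatase selective for ERK, averaged 15.1 ± 5.57 TPM in the controls (SD, n = 11) and 13.4 ± 7.10 TPM under PFNA (SD, n = 10) (log2 fold change -0.24 with SE 0.24, adjusted p = 0.47 by limma), with PFNA libraries both above and below the control range. Dusp10 (chromosome 1, 184013302 to 184075636), which acts on p38 and JNK, averaged 0.841 ± 0.233 (SD, n = 11) and 0.803 ± 0.367 TPM (SD, n = 10), under the minimum for testing. With no filter on low values its log2 fold change was -0.04 (SE 0.10, limma adjusted p = 0.82).

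Of the 3 Sprouty genes 2 rose. Spry1 (chromosome 3, 37639947 to 37644598) was at 5.84, 16.2 and 25.1 TPM in the lowest, median and highest control and at 19.5, 32.3 and 43.8 TPM with PFNA, 9 of 10 above every control (log2 fold change 0.99 with SE 0.20, adjusted p = 0.00071 by limma). Spry2 (chromosome 14, 105891947 to 105896819) was at 24.3, 34.9 and 46.5 TPM in controls and at 33.1, 56.9 and 79.3 TPM with PFNA, 8 of 10 above every control (log2 fold change 0.71 with SE 0.15, adjusted p = 0.0011 by limma). The 2 libraries of Spry2 within the control range were PFNA replicates 1 and 2, at 40.8 and 33.1 TPM. Spry4 (chromosome 18, 38586247 to 38601415) was at 7.39 ± 2.55 (SD, n = 11) and 6.82 ± 2.14 TPM (SD, n = 10) and did not pass (log2 fold change -0.08 with SE 0.18, adjusted p = 0.76 by limma).

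Spred1 (chromosome 2, 117121374 to 117182279), whose product inhibits RAS activation, rose by less, from 13.8 ± 1.58 (SD, n = 11) to 18.2 ± 4.53 TPM (SD, n = 10), with 6 of 10 PFNA libraries above every control (log2 fold change 0.34 with SE 0.11, adjusted p = 0.024 by limma). Replicates 1 and 2 were its lowest PFNA libraries, at 12.5 and 12 TPM. Spred2 (chromosome 11, 19924375 to 20024026) stood at 3.93 ± 0.509 (SD, n = 11) and 3.98 ± 1.03 TPM (SD, n = 10), or -0.01 on the log2 scale (SE 0.10, adjusted p = 0.97 by limma). For none of the 9 members tested did the groups separate fully, which 1.28% of all genes tested did.

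PFNA replicates 1 and 2 resembled the controls in Spry2 and Spred1, but in Dusp6 they lay at 60.4 and 71.1 TPM, above the highest control. Without replicates 1, 2 and 10, the PFNA libraries with the highest oocyte share, all 6 members were again called higher, with log2 fold changes of 1.36 for Dusp4, 0.97 for Dusp6, 1.07 for Spry1, 0.85 for Spry2, 0.63 for Dusp1 and 0.40 for Spred1. Of all genes 35.5% were then called, against 29.4% with every library. Every PFNA library left had a lower oocyte share than every control, so this fit cannot tell oocyte share and PFNA apart. When the oocyte share entered the fit as a covariate, which moves with PFNA, 817 genes were called in all, and of the members only Dusp4 (1.25, limma adjusted p = 0.018) and Dusp6 (1.42, adjusted p = 0.0027) remained past the threshold. The log2 fold changes of the other 4 were then 0.79 for Dusp1 (SE 0.24, adjusted p = 0.053), 0.88 for Spry1 (SE 0.28, adjusted p = 0.068), 0.53 for Spry2 (SE 0.21, adjusted p = 0.13) and 0.33 for Spred1 (SE 0.16, adjusted p = 0.23), each with a larger SE than without the covariate. Of the 8 theca and stroma markers Ptch1 and Nr2f2 were higher and Insl3 lower in this window. Mitochondrial-like genes took 14.9 to 20.3% of TPM in controls and 17.6 to 23.0% with PFNA. The part of these shifts in the members' changes was not tested, beyond the rescaling given above.

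**Figure D1:**
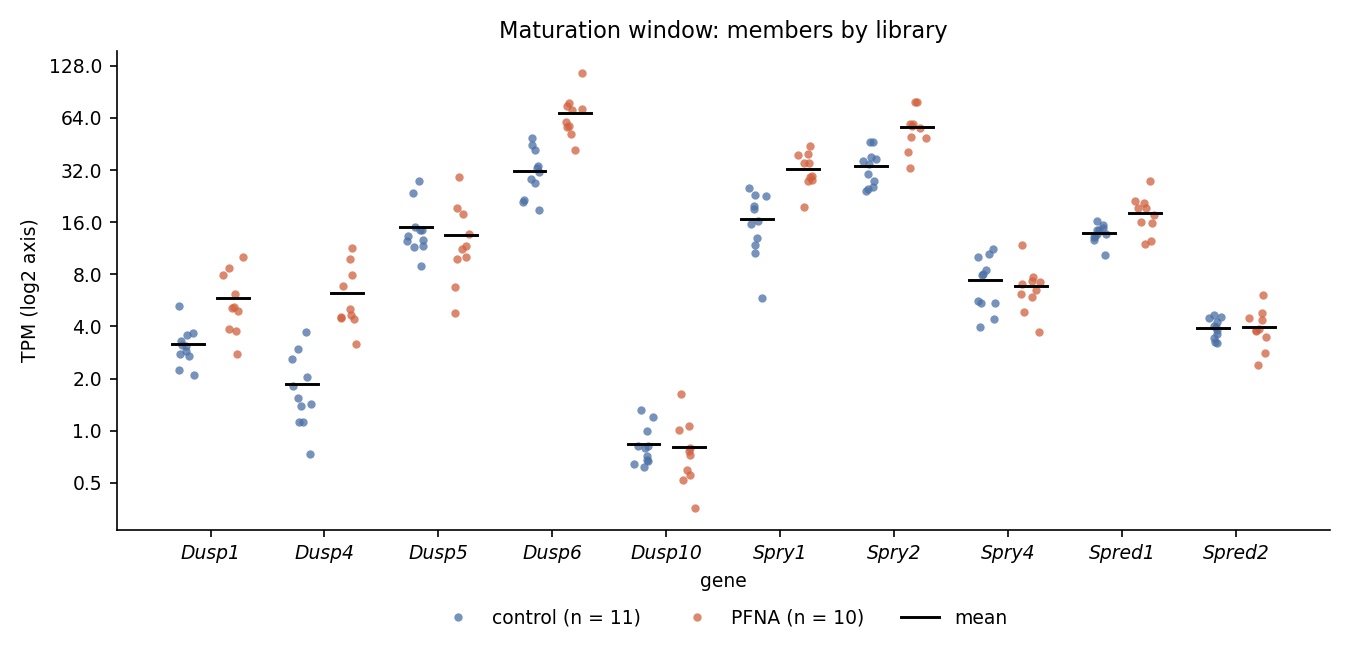
Level of each member in TPM (log2 axis) in every maturation library, 11 controls and 10 PFNA, with the mean of each group as a bar. The PFNA points of Dusp4, Dusp6 and Spry1 lie above all controls in 9 of 10 libraries, whereas those of Dusp5, Dusp10, Spry4 and Spred2 overlap the controls.

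The second comparison asked how PFNA changed the same transcripts after hCG. Here 7 of 10 members fell and 1, Spry1, rose (edgeR quasi-likelihood test, Benjamini-Hochberg adjusted p under 0.05), whereas Dusp1 and Dusp4 did not pass. In this window most genes were called, 73.2% of the 13441 tested, with 35.2% lower and 38% higher. The members' median log2 fold change was -1.03, against 0.039 over all genes. For 5 of the 10 members (Dusp6, Dusp10, Spry2, Spred1 and Spred2) every PFNA library lay below every control, which held for 14.1% of all genes. Groups separated in either direction for 26% of all genes.

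Dusp10 had the largest change among the members. It was measured at 36.2, 54.4 and 118 CPM in the lowest, median and highest control and at 10.7, 16.2 and 26.6 CPM with PFNA. The mean was 4.07-fold lower, or -2.02 on the log2 scale (SE 0.20, adjusted p = 1.9e-09 by edgeR). Dusp6 was at 138, 159 and 262 CPM in controls and at 42.4, 56.3 and 100 CPM with PFNA, the highest of these being replicate 5. Its log2 fold change was -1.54 (SE 0.15, edgeR adjusted p = 9.6e-10), a mean 2.90-fold lower.

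Dusp5 fell by the same amount on the log2 scale, -1.54 (SE 0.19, edgeR adjusted p = 6.5e-08), from 43.5 ± 12.7 (SD, n = 12) to 14.9 ± 5.21 CPM (SD, n = 11). Of 11 PFNA libraries 10 were below every control, and the exception was replicate 5 at 24.7 CPM against 23.9 in the lowest control. Dusp1, whose promoter window carries the cAMP response element shown above, was at 22.5 ± 3.99 CPM (SD, n = 12) and 21.6 ± 5.34 CPM (SD, n = 11), or -0.06 on the log2 scale (SE 0.13, adjusted p = 0.69 by edgeR), and turned to 0.09 when libraries were scaled by their totals alone. Dusp4 was at 55.3 ± 15.8 (SD, n = 12) and 46.3 ± 18.2 CPM (SD, n = 11), with the lowest value, 16.1 CPM, and the second highest of all 23 libraries, 82.8 CPM, both under PFNA (log2 fold change -0.26 with SE 0.20, adjusted p = 0.24 by edgeR).

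Among the Sprouty genes, Spry2 was at 121, 183 and 320 CPM in the lowest, median and highest control and at 55.0, 68.5 and 91.6 CPM with PFNA (log2 fold change -1.46 with SE 0.14, adjusted p = 1.1e-09 by edgeR). Spry4 fell less, from 35.5 ± 5.94 (SD, n = 12) to 23.2 ± 7.28 CPM (SD, n = 11), with 8 of 11 PFNA libraries below every control (log2 fold change -0.61 with SE 0.15, adjusted p = 0.00074 by edgeR). Its lowest library, PFNA replicate 5 at 9.14 CPM, is the one with the lowest oocyte share, and without it the log2 fold change was -0.53 (edgeR adjusted p = 0.00031). Spry1 went the other way, from 4.36 ± 1.84 (SD, n = 12) to 8.61 ± 2.29 CPM (SD, n = 11), with 7 of 11 PFNA libraries above every control (log2 fold change 0.98 with SE 0.24, adjusted p = 0.00068 by edgeR). It was the member with the fewest reads, 8 to 106 counts per control library and 79 to 211 with PFNA.

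The Spred genes varied least between libraries. Spred1 was at 166, 238 and 281 CPM in the lowest, median and highest control and at 111, 131 and 164 CPM with PFNA (log2 fold change -0.78 with SE 0.085, adjusted p = 8.1e-09 by edgeR). Spred2 was at 66.2, 73.2 and 90.4 CPM in controls and at 27.1, 30.5 and 37.2 CPM with PFNA, with the smallest p of the members (log2 fold change -1.28 with SE 0.074, adjusted p = 7.9e-14 by edgeR). The coefficient of variation of Spred2 was 12% in controls and 11.7% with PFNA, where that of Dusp10 was 38.3% and 30.3%.

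Control replicate 4 was the highest control for 7 members (Dusp4, Dusp6, Dusp10, Spry1, Spry2, Spred1 and Spred2), and without it 8 members were again called, 1 higher and 7 lower, with log2 fold changes of -1.92 for Dusp10 and -1.47 for Dusp6. Some markers of other cell types were called in this window, where 38% of all genes were higher and 35.2% lower. Of 6 endothelial markers 6 were higher (edgeR), their summed share lying between 0.00303% and 0.0113% in controls and between 0.0033% and 0.0339% with PFNA. Of 7 leukocyte markers 3 were higher, near the share of all genes. Of 8 theca and stroma markers Gli1, Ptch1, Col1a1 and Cyp17a1 were higher and Pdgfra and Nr2f2 lower. Their part in the members' changes was not tested. When the oocyte share entered this fit, 8 members were again called, 1 higher and 7 lower.

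**Figure D2:**
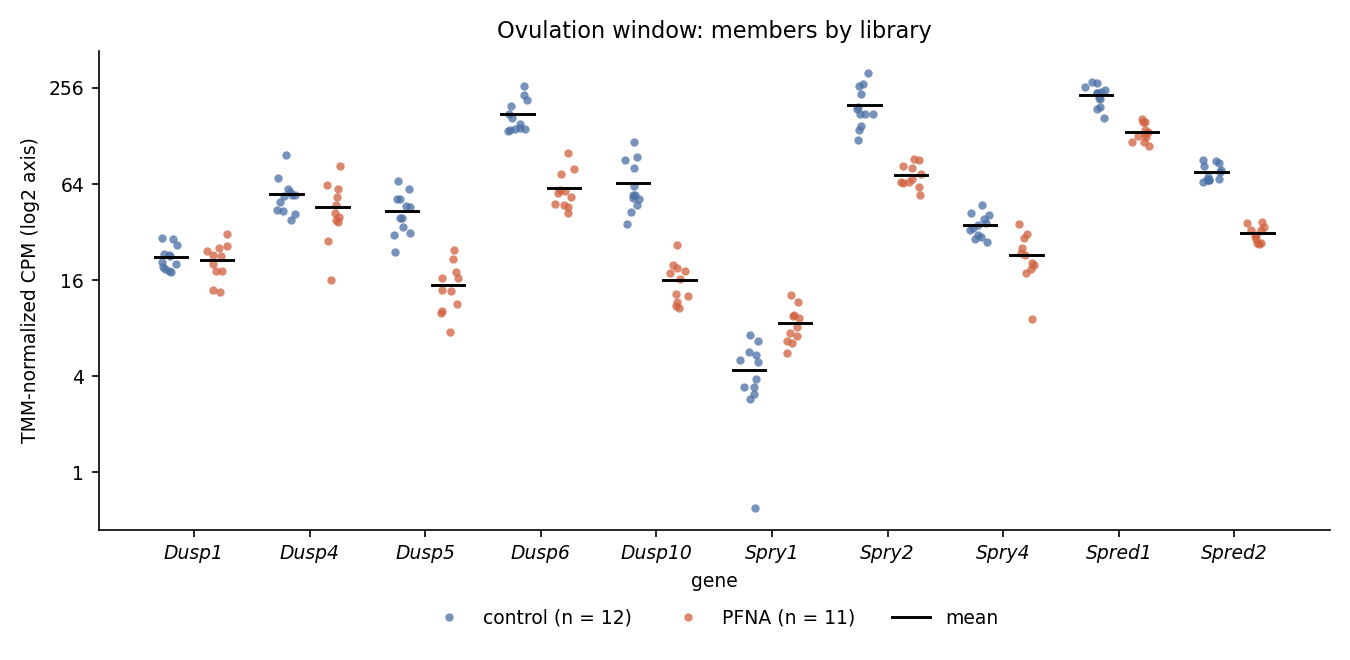
Level of each member in TMM-normalized CPM (log2 axis) in every ovulation library, 12 controls and 11 PFNA, all treated with hCG, with group means as bars. The groups separate fully for Dusp6, Dusp10, Spry2, Spred1 and Spred2, and for Spry1 alone the PFNA mean is above the control mean.

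Whether the PFNA effect differed between windows was tested for the 9 members that passed the filter in both, as the log2 fold change after hCG minus that during maturation, each fitted with limma in its own table. The difference passed for 8 of 9 members, each lower after hCG, where 67.7% of all 11215 genes tested passed and 35.6% were lower and 32% higher after hCG. It was largest for Dusp6, at -2.62 (SE 0.22, limma adjusted p = 2.7e-13), from 1.09 during maturation to -1.53 after hCG. Spry2 followed with -2.12 (SE 0.20, limma adjusted p = 1.9e-12). Dusp4 differed by -1.63, Dusp5 by -1.26, Spred2 by -1.24, Spred1 by -1.11, Dusp1 by -0.75 and Spry4 by -0.56 (limma adjusted p from 5.2e-11 to 0.03).

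Dusp6, Spry2 and Spred1 were called higher in the first window and lower in the second, 3 of 9 members, as were 5.11% of all genes tested in both. With the oocyte covariate the maturation calls of Spry2 and Spred1 did not hold (limma adjusted p = 0.13 and 0.23), and that of Dusp6 did. Spry1 was the only member called higher in both windows, as were 6.06% of all genes, and its difference of -0.08 (SE 0.28, limma adjusted p = 0.81) did not pass. The remaining members were called in one window: Dusp1 and Dusp4 during maturation, and Dusp5, Spry4 and Spred2 after hCG, with Dusp10 tested only there. The tables of the windows differ in unit and in gene models, and a batch that altered the PFNA effect cannot be told apart from the window.

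**Figure D3:**
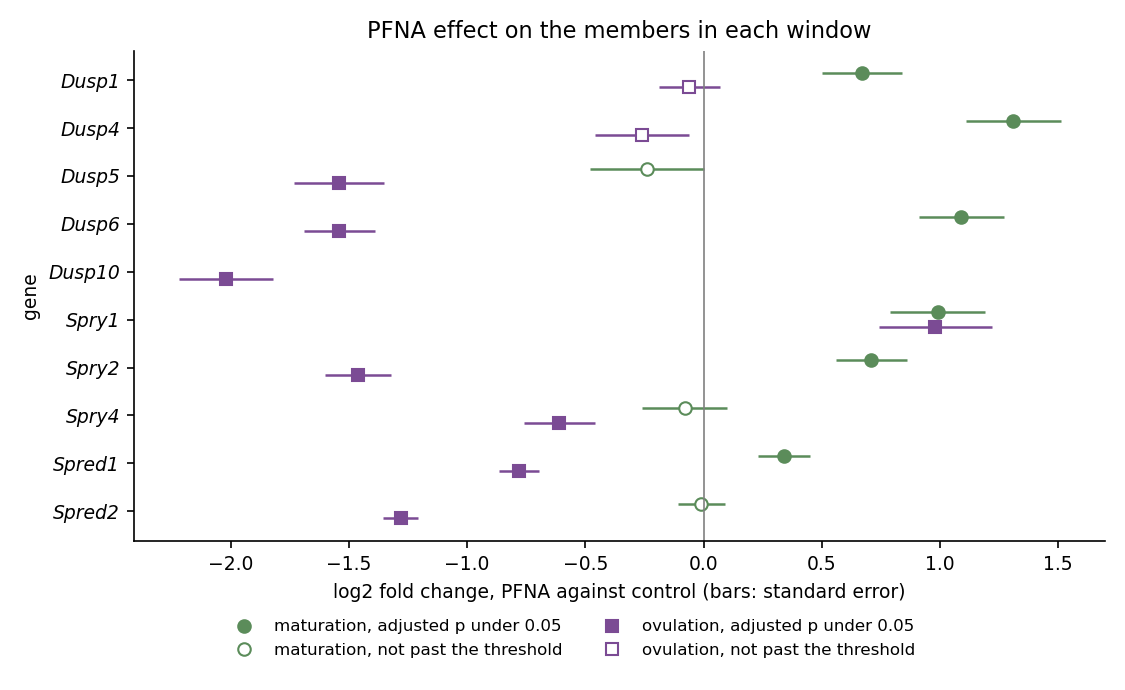
Log2 fold change of PFNA against control for each member in each window (points, with standard errors as bars), limma for the maturation window and edgeR for the ovulation window. Filled points passed an adjusted p under 0.05. Dusp6 and Spry2 lie on opposite sides of 0, and Spry1 lies near 1 in both windows.

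Levels were ordered within each window on a scale per length, for the ovulation window that of all GENCODE M21 exons of a gene. Gene models of the ovulation table differ from these, so the order there is approximate. For Dusp1 the whole span in that table is 2882 bases, against 3311 bases of M21 exons. In maturation controls Spry2 and Dusp6 led, at 33.8 ± 7.97 and 31.7 ± 9.99 TPM (SD, n = 11), a difference within their spread. Spry1, Dusp5 and Spred1 followed at 16.6, 15.1 and 13.8 TPM without differing beyond their SDs, then Spry4 at 7.39, Spred2 and Dusp1 at 3.93 and 3.15, Dusp4 at 1.86 and Dusp10 at 0.841 TPM. With PFNA, Dusp6 was first in mean, at 68.2 TPM, and above Spry2 in 7 of 10 libraries. In ovulation controls, on CPM per kilobase of GENCODE M21 exons, Spry2 led at 96.2 ± 28.5 (SD, n = 12), above Dusp6 at 55.9 ± 13.4 in 12 of 12 libraries, followed by Spred1 at 34.1 ± 5.12. Dusp10, Dusp4, Dusp5 and Spred2 lay close together between 21.5 and 16.5, and Spry1 was last at 1.5. With PFNA, Spry2 remained first at 34.9 ± 5.83 (SD, n = 11), while Spred1 and Dusp6, at 19.9 and 19.3, did not differ beyond their spread.

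Variation of the members from library to library was compared on log2 values after subtraction of each group's mean, so that the PFNA effect itself does not enter, over 45 pairs of members in each window, with permutation of libraries within groups and adjustment over all 90 pairs. In the maturation window 10 pairs passed, in the ovulation window 9, and all 19 were positive. The share of all gene pairs that pass was not computed, so nothing particular to the members is read from these counts. Among all genes compared with Spry4 during maturation, Dusp6 ranked 145 of 6803 by r. After hCG Dusp4 ranked 75 and Spry2 200 of 9408 in likeness to Dusp6. The member most like Spry4 after hCG, among those searched, was Dusp1 at rank 2722 of 9408. During maturation the member most like Dusp6 among those with a mean of 10 TPM or more in a group was Spred1, at rank 1400 of 6802. Libraries of a window share their normalization, and the labels give no batch.

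During maturation the pairs among the phosphatases Dusp1, Dusp5 and Dusp10 passed. Dusp10 lay at only 0.358 to 1.64 TPM there, with means under the minimum for testing PFNA against control. Dusp5 with Dusp10 had r = 0.83 and rho = 0.74 (21 libraries, permutation p = 3e-05 and 0.00055, adjusted 0.0013 and 0.011), and r was 0.70 without the 2 libraries farthest from the median of Dusp5. Dusp1 with Dusp5 had r = 0.79 and rho = 0.71 (permutation p = 0.00014 and 0.0013, adjusted 0.0025 and 0.017), and 0.62 without 2 libraries. PFNA replicate 5 was the highest PFNA library for all 3 genes. Spred1 with Spred2 had r = 0.82 and rho = 0.65 (permutation p = 0.00018 and 0.004, adjusted 0.0027 and 0.03), with 0.64 after the same step. Dusp6 varied with Spry4 (r = 0.70, rho = 0.72, permutation p = 0.0011 and 0.00061, adjusted 0.0097 and 0.011, r = 0.62 without 2 libraries), and Spry1 with Spry2 (r = 0.62, rho = 0.64, permutation p = 0.0017 and 0.0028, adjusted 0.013 and 0.023, r = 0.54 without 2 libraries).

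After hCG other pairs stood out. Dusp10 with Spry2 had r = 0.87 and rho = 0.82 over 23 libraries (permutation p = 1e-05, the smallest that the permutations can give, and 2e-05, adjusted 0.0009 and 0.0012). It was 0.83 without the 2 libraries farthest from the median of Dusp10, 0.97 within the controls and 0.66 within the PFNA libraries. Dusp4 with Dusp6 had r = 0.72 and rho = 0.79 (permutation p = 0.00013 and 4e-05, adjusted 0.0025 and 0.0012), with 0.85 without 2 libraries. Dusp6 with Spry2 had r = 0.66 and rho = 0.77 (permutation p = 0.0004 and 3e-05, adjusted 0.0045 and 0.0012), with 0.54 without 2 libraries, 0.86 within the controls and 0.45 within the PFNA libraries. Dusp6 with Spry4, positive during maturation, had r = -0.43 and rho = -0.26 here and did not pass (permutation p = 0.059 and 0.25, adjusted 0.18 and 0.42). Its r was -0.23 without 2 libraries and -0.11 within the controls. Whether relations differ between windows was not tested.

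**Figure D4:**
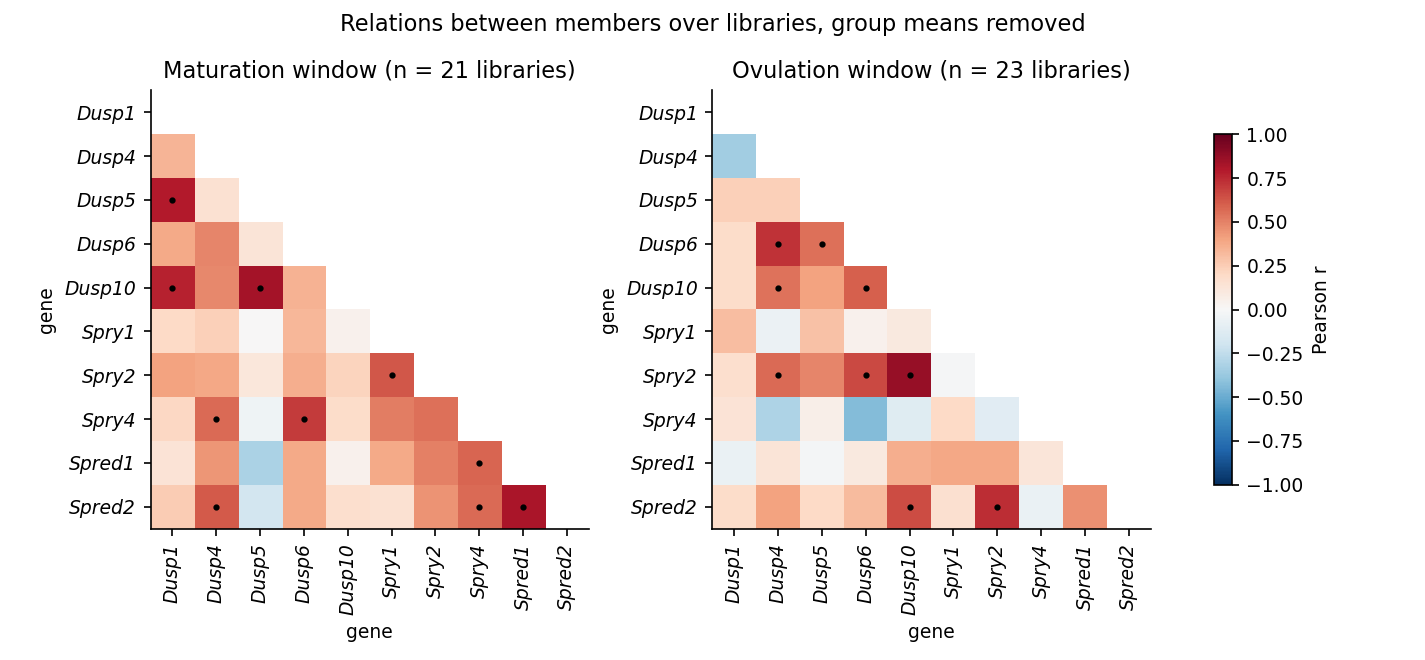
Pearson r between members over the libraries of each window (21 and 23), after the mean of each group was subtracted, as colour from -1 to 1. Dots mark the 10 and 9 pairs with an adjusted permutation p under 0.05, of which all in the ovulation window join Dusp4, Dusp6, Dusp10, Spry2 and Spred2 with each other except the pair of Dusp5 and Dusp6.

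The genes most like Dusp6 over libraries, by Pearson r after subtraction of group means, were sought among all genes averaging 10 TPM or CPM or more in a group. In the maturation window they included Retreg3 and Plscr3 (r = 0.782 and 0.771 over 21 libraries, among 6802 genes), and in the ovulation window they were Tmod1, Rnd3 and Fkbp1a (r = 0.849, 0.847 and 0.841 over 23 libraries, among 9408 genes). Tmod1 encodes a cap of actin filaments. The genes most like Spry4 were Plat, Plk2 and Prcc during maturation (r = 0.851, 0.834 and 0.831), Plat encoding tissue-type plasminogen activator. After hCG they were Rbpms2, Zfp57 and Tent5c (r = 0.816, 0.811 and 0.810), and these fell to 0.665, 0.574 and 0.498 without the 2 libraries farthest from the median of Spry4. Genes named by Gm numbers or Rik clones were left out. The genes named were picked for high values among all those searched, so no p-value is given.

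Other inhibitors of the cascade, a list of 17 genes, gave 3 higher and 2 lower of 15 tested during maturation (limma) and 4 higher and 9 lower of 16 tested after hCG (edgeR), with median log2 fold changes of 0.15 and -0.25. For these and the lists that follow, 29.4% and 73.2% of all genes were called in the respective windows, with medians of 0.023 and 0.039, and the counts are to be read against those shares. Errfi1, an inhibitor of the EGF receptor, rose slightly during maturation, from 15.1 ± 4.17 (SD, n = 11) to 20.5 ± 5.53 TPM (SD, n = 10) (log2 fold change 0.42 with SE 0.16, adjusted p = 0.049 by limma). After hCG it fell from 686 ± 269 (SD, n = 12) to 207 ± 48.2 CPM (SD, n = 11), with 11 of 11 PFNA libraries below every control (log2 fold change -1.73 with SE 0.19, adjusted p = 9.4e-09 by edgeR). Spred3 had the smallest p among those higher during maturation, at 8.20 and 12.2 TPM (log2 fold change 0.51), and Pebp1, an inhibitor of RAF, among those lower (-0.17). After hCG these were Dusp16, a phosphatase of JNK and p38, which rose from 54.0 ± 8.10 (SD, n = 12) to 180 ± 25.5 CPM (SD, n = 11) (log2 fold change 1.73, edgeR adjusted p = 6.1e-15), and Lrig1, which lowers EGF receptor family levels (-1.50). Dusp2, also a phosphatase of ERK and p38, did not pass in either window (adjusted p 0.67 by limma and 0.80 by edgeR).

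Next came the kinases that the members restrain. Of the 17 RAS-ERK core genes 3 were higher and 3 lower during maturation, and 2 higher and 9 lower of 17 after hCG, with medians of 0.06 and -0.28. Mapk3, which encodes an ERK kinase, was at 147 ± 20.4 (SD, n = 11) and 153 ± 21.6 TPM (SD, n = 10) and did not pass during maturation (log2 fold change 0.07, limma adjusted p = 0.57). After hCG it fell by 0.36 on the log2 scale (edgeR adjusted p = 0.00036). Braf (0.31) and Map2k1 (-0.35), which encode a RAF and a MEK kinase, had the smallest p in each direction during maturation, and Araf (0.45) and Map2k2 (-0.76) after hCG. In the p38 and JNK cascade 1 of 11 genes tested was called during maturation, Map3k7 as lower (-0.43), and after hCG 2 of 13 were higher and 5 lower, led by Mapk10 (2.24, at 1.06 and 5.04 CPM) and Map2k3 (-1.14).

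Transcripts known to respond to ERK, 16 genes, gave 3 higher and none lower of 13 tested during maturation, and 5 higher and 7 lower of 16 after hCG, with medians of 0.39 and -0.23. Phlda1 rose from 45.7 ± 14.5 (SD, n = 11) to 142 ± 59.9 TPM (SD, n = 10) during maturation, in 9 of 10 libraries above every control (log2 fold change 1.56 with SE 0.23, adjusted p = 3.6e-05 by limma). Etv5, an ETS factor that is commonly read beside Dusp6 and Spry4, did not pass during maturation (0.37, limma adjusted p = 0.055), with 7 of 10 PFNA libraries above every control and 1 below. After hCG it fell from 44.8 ± 3.43 (SD, n = 12) to 23.5 ± 4.49 CPM (SD, n = 11), with 11 of 11 libraries below every control (log2 fold change -0.93 with SE 0.089, adjusted p = 7.3e-10 by edgeR). The immediate-early genes were divided after hCG: Egr3 fell (-2.53, SE 0.17, edgeR adjusted p = 3e-12), whereas Fosb, Egr1 and Fos rose (2.54, 0.94 and 0.45, edgeR adjusted p = 1.5e-11, 1.1e-06 and 0.0036). The others of the list called lower after hCG were Epha4, Ier3, Ier2, Fosl1 and Epha2, and those called higher Egr2 and Myc. During maturation Egr1 rose (1.10, limma adjusted p = 0.031) and Fos, with 0.80, did not pass (limma adjusted p = 0.19).

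Of 22 ligands and receptors upstream of ERK, 14 were tested during maturation, 4 of them higher and 1 lower, and 21 after hCG, 10 higher and 10 lower, with medians of 0.24 and -0.23. Hbegf, a ligand of the EGF receptor, had the smallest p among those higher during maturation, at 13.4 ± 3.64 (SD, n = 11) and 23.2 ± 9.39 TPM (SD, n = 10) (log2 fold change 0.70, limma adjusted p = 0.0056), and Fgfr4 among those lower (-1.17, limma adjusted p = 0.0015). After hCG these were the receptors Erbb3 (2.56) and Erbb2 (-0.98, from 52.2 to 26.6 CPM). Egfr itself was at 4.93 ± 0.986 (SD, n = 11) and 4.62 ± 0.888 TPM (SD, n = 10) during maturation (log2 fold change -0.07, limma adjusted p = 0.65). After hCG it rose from 69.0 ± 15.9 (SD, n = 12) to 96.9 ± 7.48 CPM (SD, n = 11) (log2 fold change 0.49 with SE 0.11, adjusted p = 0.00028 by edgeR). The EGF-like ligands of the same list are named here after their values were seen. After hCG Ereg, Areg and Btc were called lower, Hbegf and Egf higher, and Tgfa in neither direction (edgeR). On counts scaled by library totals, Ereg was at 1399, 2173 and 3705 CPM in the lowest, median and highest control and at 38.7, 148 and 686 CPM with PFNA. Areg had medians of 258 and 52.4 CPM, with groups that overlapped, and Btc of 2488 and 584 CPM, with every PFNA library below every control. Hbegf had medians of 3.675 and 11.26 CPM, with every PFNA library above every control. Egf was low, with medians of 0.4395 and 1.318 CPM. During maturation Ereg and Areg were called higher (limma), with medians of 1.49 and 3.32 TPM for Ereg and of 0.863 and 2.36 TPM for Areg.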

How the data were processed

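RNA-seq of mouse ovarian follicles was analysed from 2 deposited gene tables, 1 per window, with 44 libraries in 4 groups. Of the maturation table the authors deposited TPM, although it is named as counts: each library sums to 1e+06. The ovulation values that the authors deposited are estimated counts, rounded here. The submitters' processing notes name HISAT2, Bowtie2 and Partek with no version or role, and the build, annotation and use of strand are not given in the sources used here. The maturation spans of all 10 members equal GENCODE M21 on GRCm38, whose coordinates are given. Columns were matched to samples by title, except that of maturation control replicate 6, which differs from its title by a letter. 

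For TPM, limma 3.58.1 (trend, robust) was fitted to log2(TPM + 1) of genes averaging 1 TPM or more. Counts were tested with edgeR 4.0.16 (R 4.3.3; filterByExpr, TMM, quasi-likelihood, robust), and the SE is the log2 fold change over the root of F. DESeq2 1.42.0 was an alternative. The difference between windows used limma in each table (log2(CPM + 1) for counts) and Satterthwaite degrees of freedom. P-values were adjusted over all genes tested, and an adjusted p under 0.05 was called. The main limma and edgeR fits and the test of the difference were tried on simulated data, and the other steps were not. No 2 ovulation libraries of a group were alike within counting noise: chi-square over its degrees of freedom was 7.22 or more in each pair. For maturation libraries the highest correlation within a group was 0.981. With depth unknown there was no noise level to set it against.

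The members and the lists were chosen with earlier results of these data known. Besides the members, the text names from each list the called gene of lowest p per direction and window, a panel (Egfr, Mapk3, Errfi1, Dusp2, Egr1, Fos, Etv5) whatever its result, and the 3 genes most like Dusp6 and Spry4. Some genes that this rule picks are not reported here.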

Additional observations from a re-analysis of the deposited data

Results flagged for a closer look

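In maturation PFNA replicate 10, Dusp6 was at 117 TPM and the next PFNA library at 78.4 TPM, and Spry4 was at 11.8 TPM and the next at 7.74. As a share of the range in TPM, the gaps were 0.516 and 0.506, above Dixon's critical value of 0.466 for 10 libraries. Chance exceeds that value in about 1 of 20 groups, and 10 members were searched. On log2 values, the scale of the fits, the gaps were not tested. The library had the lowest granulosa marker share of its group (1.51%) and the highest shares of theca and stroma (0.142%), endothelial (0.00654%), leukocyte (0.0174%) and oocyte markers (0.0328%), whose part in these values was not tested. Without this library the log2 fold change was 1.0 for Dusp6 (limma adjusted p = 0.00015) and -0.17 for Spry4 (limma adjusted p = 0.49).

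The PFNA effect on 8 members differed between the windows by the test of the difference itself (limma in each table): by -0.75 for Dusp1, -1.63 for Dusp4, -1.26 for Dusp5, -2.62 for Dusp6, -2.12 for Spry2, -0.56 for Spry4, -1.11 for Spred1 and -1.24 for Spred2 on the log2 scale, ovulation minus maturation. Of all 11215 genes tested 67.7% passed this test, 35.6% as lower after hCG, so passing it is not particular to the members.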

How the results depend on the processing

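For single members, 81 of 90 values under the maturation alternatives, 79 of 80 under the ovulation alternatives and 35 of 36 for the difference kept direction and side of the threshold. With oocyte share as covariate, 817 genes and 2 members were called in the maturation window, against 4030 and 6, and Spry4 turned to 0.09. The members that lost the call had log2 fold changes of 0.79 (Dusp1), 0.88 (Spry1), 0.53 (Spry2) and 0.33 (Spred1), against 0.67, 0.99, 0.71 and 0.34 without the covariate, with larger SEs. The cause was not tested. Values near 0 changed sign elsewhere: Spred2 to 0.04 without mitochondrial-like genes, 0.10 without maturation PFNA replicates 1 and 2 and 0.04 also without replicate 10, Dusp1 after hCG to 0.09 with library totals only, and the difference of Spry1 to 0.07 with a pseudocount of 0.1. Rescaling without mitochondrial-like genes moved the share of higher calls from 45.3% to 59.2%, and library totals moved the median of all genes after hCG from 0.04 to 0.16. Without maturation control replicate 6 or PFNA replicate 10, 3659 and 3680 genes were called, and without ovulation control replicate 4 or PFNA replicate 5, 9714 and 9906, with 6 and 8 members each time. The alternatives without ovulation control replicate 4 and without maturation PFNA replicates 1, 2 and 10 were chosen after the data were seen.

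No pairing of libraries by replicate number was seen, on log2 values after subtraction of each group's mean. These deviations correlated by -0.201 to 0.188 between same-numbered maturation libraries, with 1 of 9 controls closest to its own number. In the ovulation window they correlated by -0.233 to 0.106, with 0 of 11. With the replicate block 2891 genes and 5 members were called in the maturation window, 9298 and 8 in the ovulation window, and 7278 and 8 for the difference. The adjusted p of Spred1 in the maturation window was then 0.069.

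TPM hide the depth of the maturation libraries, and Dusp10 there was too low to test.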
